A study of Mus musculus with 13 samples.

Results

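The BCL2 family sets whether a cell commits to apoptosis. Its pro-survival proteins BCL2, BCL-XL and MCL1 hold the family's other members in check, its effectors BAX and BAK open the outer mitochondrial membrane so that cytochrome c escapes and caspases are activated, and its BH3-only proteins (BIM, PUMA, NOXA, BID and BAD among them) carry stress signals by binding to either group. In the enamel organ, the dental epithelium that forms enamel, apoptosis removes a part of the ameloblasts as they pass from secreting the enamel matrix to maturing it, and in several other epithelia TGF-beta is known to raise BIM and the related protein BMF. Described here are 10 genes chosen by mouse symbol (Bcl2, Bcl2l1, Mcl1, Bax, Bak1, Bcl2l11, Bbc3, Pmaip1, Bid and Bad), out of 48709 Ensembl genes counted. All 10 were found in the count table, and all 10 were among the 16328 genes that passed the filter on low counts.

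Bulk RNA-seq was made from enamel organs dissected from mandibular incisors at postnatal day 11. The groups were 5 mice heterozygous for the Tgfbr2 substitution G357W, a model of Loeys-Dietz syndrome (Tgfbr2-G357W/+, called Het), and 8 wild-type littermates (Tgfbr2-+/+, called WT), with no treatment named for either. The labels name no promoter or Cre that would limit the substitution to the dental epithelium, and they assign no sex or litter to a library. The comparison asks how the transcriptome of this tissue differs between the genotypes. The numbers of libraries and mice agree, and each library was taken as 1 mouse.

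The libraries held 18852382 to 26508410 counts. All 12 markers fixed for the enamel organ were among the genes tested, with mean levels per library from 10.01 to 10.44 log2 CPM (CPM is a count as parts per 1e6 of the library total, scaled by TMM factors), and the mean of 8 skeletal muscle markers ran from -0.50 to 3.40. The column names carry a number before a hyphen (1, 4 or 5, called the prefix), whose meaning the sources used here do not give, and prefix explained 78.5% of the first principal component against 9.06% for genotype. Tgfbr2 itself averaged 6.19 ± 0.19 log2 CPM over the 5 Het libraries (SD) and 5.97 ± 0.20 over the 8 of WT, a log2 fold change of 0.22 with an SE of 0.11 that missed the threshold (edgeR adjusted p = 0.741). Gene counts do not tell its alleles apart. In bulk tissue, fewer cells of a type and less RNA per cell cannot be told apart.

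None of the 10 genes differed between Het and WT past the threshold of 0.05 on the adjusted p (edgeR, quasi-likelihood fit, p-values adjusted by Benjamini and Hochberg across the tested genes). The background is low too, since 14 of 16328 genes passed, or 0.0857%. No log2 fold change of a member was past 1 in size, against 0.833% of all genes tested. No member had an unadjusted p under 0.05, against 6.90% of all genes tested, and DESeq2 and limma-voom also called 0 members, with 0 at an unadjusted p under 0.05. Library ranges of Het and WT overlapped for every member, where 0.490% of all genes tested had ranges apart. The log2 fold change was below 0 for 9 members and above 0 for Pmaip1, with a median of -0.06, and it was below 0 for 50.9% of all genes tested (median 0.00 on the log2 scale). These 9 signs are not firm. With other scaling factors (RLE and upper quartile) the count stayed at 9, while across the other fits tried it ran from 6 to 9.

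What the genes did show is a steep order of levels that both genotypes shared. Bcl2l1, which encodes BCL-XL, stood far above all others at a mean of 146 CPM per kilobase of exon over the 13 libraries. This was 9.41 times the mean of Bax, the next of the 10, and the level of Bcl2l1 ranked 167 among 16289 tested genes with a known exon length. Bcl2, the founder of the family, was eighth of the 10 at 0.947 CPM per kilobase, rank 11440. Counts do not separate isoforms, so the long BCL-XL and short BCL-XS forms of Bcl2l1 are counted as 1 gene. The bases before the start sites of these genes are shown for this contrast between the most abundant pro-survival gene, the scarce one and the leading effector. They are the 250 bases upstream of the annotated start (for Bcl2l1 the outermost of 3), from RefSeq on GRCm38.p6, minus strand, written 5′ to 3′, at chr2:152831729-152831978 for Bcl2l1, chr1:106714291-106714540 for Bcl2 and chr7:45466899-45467148 for Bax. Capitals mark the GC box GGGCGG and the E-box CACGTG on either strand.
Bcl2l1: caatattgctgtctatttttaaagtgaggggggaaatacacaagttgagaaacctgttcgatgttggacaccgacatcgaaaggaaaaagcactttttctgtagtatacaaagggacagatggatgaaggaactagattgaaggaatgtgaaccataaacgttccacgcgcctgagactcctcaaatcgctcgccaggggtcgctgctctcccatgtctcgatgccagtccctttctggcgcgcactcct
Bcl2: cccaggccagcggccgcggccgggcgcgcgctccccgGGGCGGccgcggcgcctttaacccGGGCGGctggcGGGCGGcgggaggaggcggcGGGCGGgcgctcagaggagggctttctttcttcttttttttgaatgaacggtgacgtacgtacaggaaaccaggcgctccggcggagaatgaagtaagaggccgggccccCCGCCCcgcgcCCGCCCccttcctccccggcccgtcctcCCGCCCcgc
Bax: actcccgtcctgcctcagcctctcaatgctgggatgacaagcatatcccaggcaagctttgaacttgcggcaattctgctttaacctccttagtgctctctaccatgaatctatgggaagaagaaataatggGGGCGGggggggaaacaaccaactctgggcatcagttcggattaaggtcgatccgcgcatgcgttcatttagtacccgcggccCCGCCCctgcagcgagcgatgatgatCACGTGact

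The Bcl2 window was 74.8% G and C and held 7 GC boxes, the Bax window 54.0% with 2 GC boxes and 1 E-box, and the Bcl2l1 window 47.6% with neither. Promoter sequences were used for 9 of the 10 genes. Counting every annotated start, 7 of these 9 held a GC box within 250 bases of a start, and 2 (Bax and Bbc3) an E-box. Counted in the same way, 35.4% of the 27025 genes in the table held a GC box and 6.86% an E-box, and of its 32851 single promoters the shares were 32.7% and 6.02%. None held the TATA box TATAAA (14.3% of all genes), the palindromic Smad-binding element GTCTAGAC (0.200%) or the CAGA box AGCCAGACA (0.340%), each sought on both strands. These are matches of letters and say nothing of what binds there. None of these motifs overlaps another in the sequences shown.

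Levels per length fell into steps. After Bcl2l1 came Bax at 15.6 ± 1.74 CPM per kilobase (SD, n = 13), Bad at 12.0 ± 1.15 and Mcl1 at 7.57 ± 1.36. Each of these was above the next in all 13 libraries, although the ranges of Bax and Bad, and of Bad and Mcl1, overlap between libraries. A gap with no overlap separated Mcl1 from Bak1 at 3.34 ± 0.635. Bak1 and Bcl2l11 (3.08 ± 0.423) cannot be ordered, with Bak1 the higher in 8 of 13 libraries. Bid followed at 1.88 ± 0.312, below Bcl2l11 in all 13. The last 3 genes lay together, with Bcl2 at 0.947 ± 0.173, Bbc3 at 0.943 ± 0.212 and Pmaip1 at 0.693 ± 0.447, and Bcl2 exceeded Bbc3 in only 6 of 13 libraries. The same order held in Het and in WT, but for Bcl2 and Bbc3, which changed places (0.898 and 0.899 in Het, 0.979 and 0.971 in WT). With the length of the longest transcript in place of all exons, Bcl2l11 (4.91) moved above Bak1 (3.37), and the levels of Bcl2l1 (262) and Bad (20.1) moved most, with Bcl2l1 at 11.7 times Bax. Some of the steps moved too. Mcl1 then came before Bcl2l11 with overlapping ranges and was above it in 12 of 13 libraries. Bax was above Bad in 12, and a gap with no overlap lay between Bad and Mcl1. With either length, gaps with no overlap also separated Bcl2l1 from Bax and Bid from Bcl2.

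**Figure D1:**
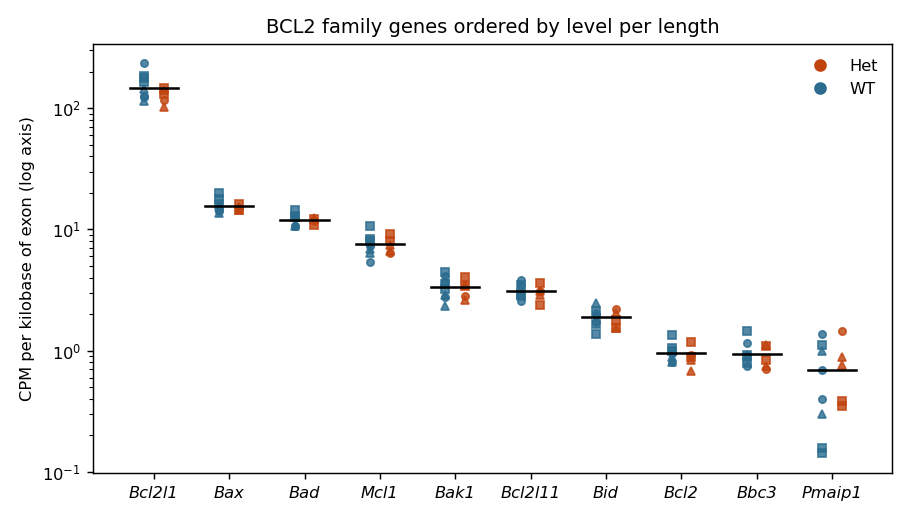
Level of each of the 10 genes in CPM per kilobase of exon (log axis), with 1 point per library (left WT, right Het, shape by prefix as circle 1, square 4 and triangle 5) and a bar at the mean of all 13. Bcl2l1 lies apart at the top with a mean of 146, and Pmaip1 has the widest spread.

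Bcl2l1 alone made up most of the level summed over the 10 genes. Of the level per length summed over the 10 genes it took 73.6% ± 2.56 in Het (SD, n = 5; range 70.3% to 76.8%) and 76.6% ± 3.88 in WT (SD, n = 8; range 71.8% to 84.3%). Among Bcl2, Bcl2l1 and Mcl1 alone its share was 92.9% to 96.5% over all libraries. Other family genes lie outside both sums, among them Bok at 32.9 and Bcl2l2 at 2.41 CPM per kilobase. Per length Bcl2l1 exceeded Bax 8.44-fold ± 1.21 in Het and 10.1-fold ± 2.77 in WT, and Mcl1 17.0-fold ± 2.02 in Het and 21.1-fold ± 4.80 in WT. The often quoted ratio of Bax to Bcl2 was 17.3 ± 3.31 in Het, with values of 16.2, 12.3, 18.3, 21.2 and 18.5, and 16.5 ± 2.55 in WT, from 11.9 to 20.2. These ratios overlap between the genotypes, and none was tested because each combines members.

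Among the pro-survival genes, Bcl2l1 (ENSMUSG00000007659, chromosome 2, 152780668 to 152831728, minus strand, GRCm38) had the largest fitted difference of the 9 members below 0. Its level was 532, 666, 601, 464 and 650 CPM in the Het libraries 1-2, 4-2, 4-5, 5-5 and 5-6, and 522 to 1071.5 with a median of 709 in WT. Every Het library lay below the WT median, and 4 of 8 WT libraries lay above all Het libraries, but the ranges overlap. The log2 fold change was -0.32 ± 0.16 (SE), a level 0.801 times that of WT with a 95% interval of 0.633 to 1.01 (edgeR adjusted p = 0.741). It was -0.41, -0.34 and -0.10 within prefixes 1, 4 and 5. The WT library 1-1, at 1071.5 CPM, was the highest of all 13, and without it the log2 fold change was -0.22. Unadjusted p fell under 0.05 in 4 of the 25 alternative fits, with 0.0270 as the smallest, and adjusted p over all 25 (edgeR, DESeq2 and limma-voom) ran from 0.502 to 0.993.

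Between the genotypes, values of maturation-stage ameloblast markers lay on the same side as those of Bcl2l1. Across libraries some went with it and others did not. Of 12 such genes tested, 11 had a log2 fold change below 0 (median -0.27), 6 had an unadjusted edgeR p under 0.05 and 0 passed the threshold. Of all genes tested, 50.9% lay below 0 and 6.90% had an unadjusted edgeR p under 0.05. The mean of the list was 7.36 to 7.71 log2 CPM in Het and 7.65 to 8.04 in WT, and the summed level of the 13 listed was 29647 to 54349 CPM in Het and 43748 to 58750 in WT, with 1 of the 13 at a count of 0 in 1 WT library. Het 4-2 had the lowest mean of all 13 libraries (7.36) and the highest Bcl2l1 of the Het group. WT 5-1 had the highest mean (8.04) and the lowest Bcl2l1 of the WT group, and WT 1-1, the highest for Bcl2l1, had the second lowest WT mean (7.72). On the other side, WT 4-4, WT 4-1 and WT 4-3 came next for Bcl2l1, at 850, 808 and 755 CPM. Their means were high, at 8.00, 7.97 and 8.04. Het 5-5, the lowest of all for Bcl2l1, had a mean of 7.61. Markers of osteoblasts and bone also lay below 0, in 7 of 7 genes tested (median -0.20), with 0 past the threshold, list means of 5.29 to 5.86 log2 CPM in Het and 5.36 to 6.38 in WT, summed levels of 844 to 1172 CPM and 859 to 1757 CPM, and none at a count of 0. Of 9 secretory-stage ameloblast markers tested, 5 lay above 0 and 4 below (median 0.11), with 0 past the threshold. Their list means were 8.81 to 9.21 log2 CPM in Het and 8.43 to 9.37 in WT. The 4 libraries highest for Bcl2l1 had the 4 lowest secretory means. These were WT 1-1, WT 4-4, WT 4-1 and WT 4-3, at 8.50, 8.43, 8.71 and 8.52, a pattern noticed after the values were seen. The part of these marker values in the Bcl2l1 values was not tested.

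Bcl2 (ENSMUSG00000057329, chromosome 1, 106538178 to 106714274, minus strand) encodes the protein that gave the family its name. It reached 8.41, 10.7, 8.14, 6.20 and 7.65 CPM in the Het libraries in the same order, from 151 to 254 counts, and 7.35 to 12.4 with a median of 8.80 in WT. The highest library of each genotype belonged to prefix 4, and the lowest in Het to prefix 5. Its log2 fold change was -0.12 ± 0.15 (SE, edgeR adjusted p = 0.893), with an interval of 0.736 to 1.14 in fold.

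Mcl1 (ENSMUSG00000038612, chromosome 3, 95658788 to 95663176, plus strand) encodes a short-lived pro-survival protein. Its level of 21.9, 27.6, 31.1, 22.7 and 25.4 CPM in Het and of 18.6 to 36.8 (median 25.5) in WT gave a log2 difference of -0.01 ± 0.14 (SE, edgeR adjusted p = 0.991). The 95% interval of 0.811 to 1.21 in fold bounds a difference in either direction. Both extremes of all 13 libraries were WT, 1-4 at the bottom and 4-1 at the top.

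Of the effectors, Bax was among the most even genes of the set and Bak1 varied more. Bax (ENSMUSG00000003873, chromosome 7, 45461697 to 45466898, minus strand) stood at 23.5, 22.6, 25.6, 22.6 and 24.3 CPM in Het and at 21.6 to 31.7 (median 24.2) in WT, where 4-3 was the highest. Its log2 fold change was -0.08 ± 0.10 (SE, edgeR adjusted p = 0.905), with a fold interval of 0.815 to 1.10. Bak1 (ENSMUSG00000057789, chromosome 17, 27019810 to 27029009, minus strand), which encodes the second effector BAK, stood at 6.83, 9.82, 8.21, 6.32 and 8.44 CPM in Het and at 5.56 to 10.6 (median 8.14) in WT. Its Het values fell inside the WT range, and the log2 fold change was -0.03 ± 0.16 (SE, edgeR adjusted p = 0.979). Per length, Bax exceeded Bak1 by 3.52-fold to 6.65-fold over the 13 libraries.

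**Figure D2:**
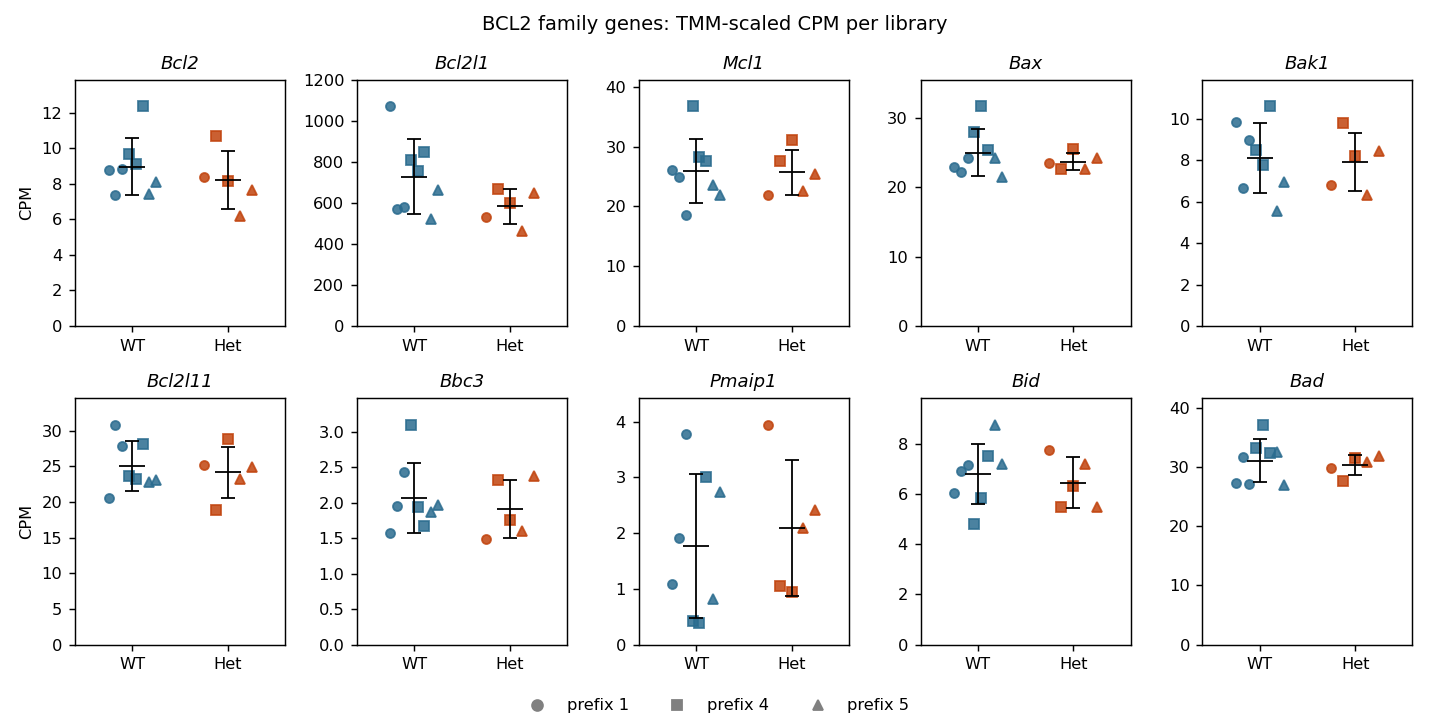
TMM-scaled CPM of the 10 genes in every library, by genotype (8 WT, 5 Het), with shapes for the prefix and black bars for the mean and SD. Het and WT overlap in every panel. Bcl2l1 ran from 464 to 1071.5 CPM, and Pmaip1 was spread from 0.388 to 3.95.

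The BH3-only genes lay at very different levels. Bad (ENSMUSG00000024959, chromosome 19, 6941861 to 6951899, plus strand), whose protein is held inactive by phosphorylation downstream of growth factors, was the most abundant per length of the 5. It measured 29.9, 27.6, 31.4, 30.9 and 31.8 CPM in Het and 27.0 to 37.2 (median 32.02) in WT, and its log2 fold change was -0.04 ± 0.10 (SE, edgeR adjusted p = 0.963). All 5 Het libraries lay below the WT median, by small steps. Over the 13 libraries Bad had an SD of 0.14 log2 CPM, at the 4.37th percentile of all genes tested, and Bax had 0.15, at the 7.07th.

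Bcl2l11 (ENSMUSG00000027381, chromosome 2, 128126038 to 128162547, plus strand) encodes BIM, a BH3-only protein that binds all the pro-survival members. Its level was 25.1, 18.9, 28.8, 23.1 and 24.8 CPM in Het and 20.6 to 30.8 (median 23.5) in WT, with a fitted log2 difference of -0.05 ± 0.12 (SE, edgeR adjusted p = 0.951) and a fold interval of 0.812 to 1.15. The lowest library of all was Het 4-2, and without it the log2 fold change was 0.02.

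Bid (ENSMUSG00000004446, chromosome 6, 120891930 to 120916853, minus strand) links death receptors to mitochondria, since caspase-8 cleaves its protein to the active form. It measured 7.76, 5.48, 6.34, 7.22 and 5.50 CPM in Het and 4.82 to 8.79 (median 7.07) in WT (log2 fold change -0.08 ± 0.16 SE, edgeR adjusted p = 0.945). The difference within prefixes was 0.21, -0.02 and -0.34 for 1, 4 and 5, so its sign was not shared. Bbc3 (ENSMUSG00000002083, chromosome 7, 16308393 to 16318205, plus strand) encodes PUMA, a p53 target that acts in several forms of stress-driven apoptosis. It had only 29 to 72 counts per library, at 1.49, 2.32, 1.76, 1.601 and 2.37 CPM in Het and 1.57 to 3.10 (median 1.94) in WT. Its log2 fold change was -0.11 ± 0.22 (SE, edgeR adjusted p = 0.941).

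Pmaip1 (ENSMUSG00000024521, chromosome 18, 66458533 to 66465565, plus strand), which encodes NOXA, a BH3-only protein that binds MCL1, was the variable gene of the set. It had 85, 25, 27, 51 and 55 counts in the Het libraries and 8 to 90 (median 34.5) in WT. In CPM this was 3.95, 1.05, 0.952, 2.09 and 2.42 in Het and 0.388 to 3.78 (median 1.496) in WT. Its highest library was 10.2 times its lowest, where the other 9 genes spanned 1.37-fold to 2.31-fold, and its SD of 1.04 log2 CPM was at the 97.6th percentile of all genes tested. Both genotypes held high and low libraries. The fitted log2 difference of 0.23 ± 0.49 (SE, edgeR adjusted p = 0.948) came with a fold interval of 0.577 to 2.37, the widest of the 10. Without Het 1-2 it was -0.12, and without WT 1-4 it was 0.48.

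Libraries at both ends of the Pmaip1 range were also at the ends for skeletal muscle markers. The 4 libraries highest for Pmaip1 (Het 1-2, WT 1-4, WT 4-4 and WT 5-3) were also the 4 with the highest mean of 8 muscle markers, at 2.34, 3.40, 1.64 and 1.598 log2 CPM. The lowest for Pmaip1, WT 4-3 and WT 4-1, had the lowest muscle means, at -0.36 and -0.50. The order did not hold throughout. Het 5-5 had 2.09 CPM of Pmaip1 beside a muscle mean of -0.23, and Het 4-2 had only 1.05 CPM beside a muscle mean of 1.45, the fifth highest. The 8 markers summed to 12.7 to 66.1 CPM in Het and 10.8 to 147 in WT, and 1 of the 8 had a count of 0 in each of Het 5-5 and Het 5-6. All 8 were tested, with 8 log2 fold changes below 0 (50.9% of all genes tested), a median of -0.44 and 0 past the threshold. With both Het 1-2 and WT 1-4 left out, the Pmaip1 log2 fold change was 0.13. The part of muscle RNA in the Pmaip1 values was not tested, and the pattern was noticed after the values were seen.

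**Figure D3:**
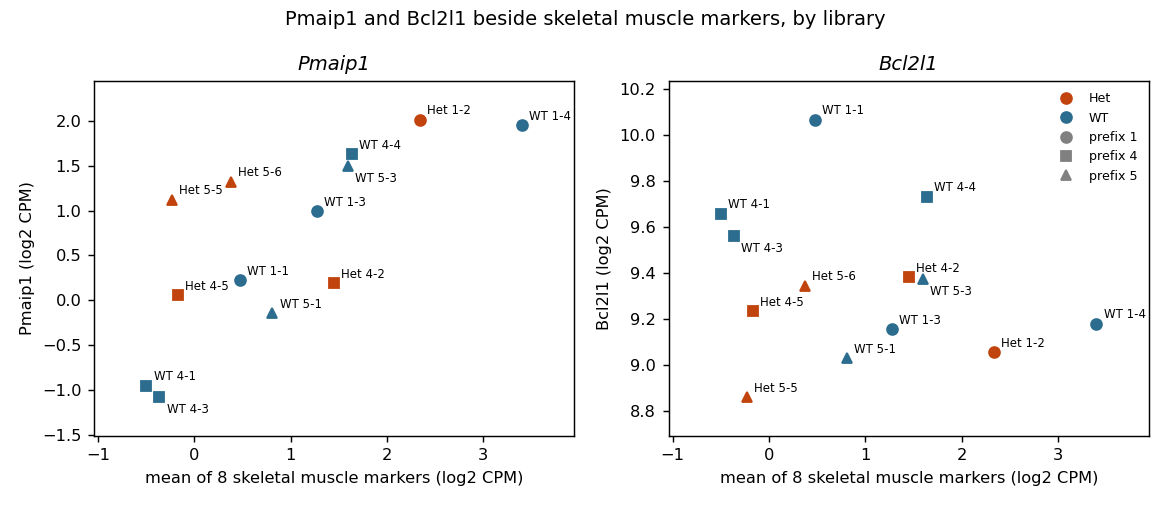
Log2 CPM of Pmaip1 (left) and Bcl2l1 (right) against the mean log2 CPM of 8 skeletal muscle markers, with 1 labelled point per library, coloured by genotype and shaped by prefix. For Pmaip1 the 4 highest libraries are those with muscle means of 1.598 to 3.40, while for Bcl2l1 the highest library, WT 1-1, has a muscle mean of 0.48.

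The fitted intervals say what size of difference these libraries leave room for. For 8 of the 10 genes the 95% interval lay within 1.5-fold in both directions. The exceptions were Bcl2l1, whose lower bound was 0.633 times the WT level, and Pmaip1. A p that misses the threshold does not show that levels are equal. In data simulated for this comparison with 16328 genes, the test recovered 31.3% of 67 genes changed 1.5-fold and 70.1% of 67 changed 2-fold. The changed genes were drawn at random from all genes tested, so these shares are not specific to the 10 genes. They also outnumbered the 14 that passed in the real comparison, which eases the adjustment of p.

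**Figure D4:**
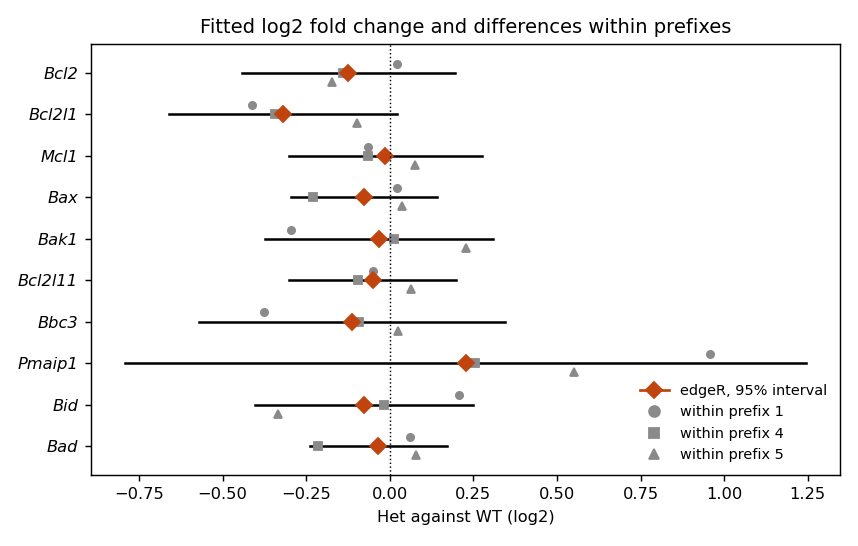
Log2 fold change of Het against WT for the 10 genes, with diamonds for the edgeR fit, lines for its 95% interval and grey symbols for the difference of mean log2 CPM within each prefix. Every line crosses 0, and the interval of Pmaip1 is the widest, from -0.79 to 1.25.

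Prefix accounted for more of the spread than genotype in all 10 genes, as it did in 76.9% of all genes tested. The median share of variance it explained was 29.5% for the 10 and 22.9% for all genes tested, and for genotype the medians were 2.62% and 5.33%. The largest shares for prefix were 61.1% for Mcl1 and 56.0% for Bcl2. Prefix has 3 levels and genotype 2, and a factor with more levels tends to take a larger share. The shares were not corrected for this, and its part in them was not tested. Of the 10 genes, 7 had their highest mean in prefix 4 (Bcl2, Bcl2l1, Mcl1, Bax, Bak1, Bbc3 and Bad), which was so for 36.7% of all genes tested, and 2, Pmaip1 and Bid, had their lowest there (37.2% of all). The difference between genotypes had the same sign in all 3 prefixes for 2 members, Bcl2l1 and Pmaip1, against 36.3% of all genes tested. Prefix 1 holds only 1 Het library.

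The libraries are unstranded, and some members share exonic bases with annotated genes on the other strand, so their reads cannot be told apart there. Bid overlaps Bcl2l13 (426 to 659 counts per library), Bad overlaps Gpr137 (675 to 939), Bak1 overlaps Ggnbp1 (33 to 102) and Bcl2 overlaps D630008O14Rik (0 to 5). None of the tested partners passed the threshold, with log2 fold changes of 0.07, -0.11 and 0.20 for Bcl2l13, Gpr137 and Ggnbp1 (edgeR adjusted p of 0.934, 0.849 and 0.887). Gm45808 shares the strand and exons of Bax and had 0 counts in every library.

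Beyond the 10 genes, 9 lists of cell death genes held 113 symbols, of which 99 were tested. None passed the edgeR threshold. An unadjusted p under 0.05 was found for 6 genes, or 6.06%, against 6.90% of all genes tested, and without Het 4-2 for 14 of 100 listed genes, against 8.95% of all. Without prefix 1 it was found for 1 of 100, against 4.53% of all. DESeq2, with its own filter, called 0 of 112 listed genes and gave 9 an unadjusted p under 0.05, or 8.04%, against 4.61% of all genes it tested. The log2 fold change was above 0 for 52 and below 0 for 47, with a median of 0.00. Of all genes tested, 50.9% lay below 0, and the counts of signs per list that follow stand beside this share.

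Of 13 further BCL2 family members, 7 were tested, 3 with a log2 fold change above 0 and 4 below (median -0.03). Bok, an effector-like member that the pro-survival proteins do not readily restrain, had 32.9 ± 4.61 CPM per kilobase (SD, n = 13), second in the whole family behind Bcl2l1 and above Bax, and a log2 difference of -0.03 ± 0.12 (SE, edgeR adjusted p = 0.973). Bmf, the BH3-only gene named above beside BIM, had 171, 95, 162, 100 and 100 counts in the Het libraries and 114 to 206 in WT, with -0.30 ± 0.18 (SE, edgeR adjusted p = 0.778). Bcl2l15 had the smallest p of the list, with 6, 8, 7, 16 and 17 counts in Het and 10 to 34 in WT. Its log2 fold change was -1.11 ± 0.39 (SE, edgeR adjusted p = 0.536), and the ranges overlap. The remaining 6, among them the lymphoid Bcl2a1 copies and Hrk, did not pass the filter on low counts. The Bcl2a1 copies are near-identical, so their few reads are uncertain.

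Downstream of the mitochondria, all 15 genes of the apoptosome, the caspases and mitochondrial release were tested, with 11 above 0 and 4 below (median 0.04). Dffa, the inhibitor of the caspase-activated DNase, had -0.16 ± 0.11 (edgeR adjusted p = 0.807). Vdac2, a channel of the outer mitochondrial membrane that binds BAK, stood at log2 CPM values of 7.72 ± 0.18 in Het and 7.65 ± 0.12 in WT. Of 5 inhibitors of apoptosis tested, 4 lay below 0 and 1 above (median -0.15), with Birc6 at -0.27 ± 0.13 (edgeR adjusted p = 0.728) and Xiap, which binds caspases directly, at -0.16 ± 0.09 (edgeR adjusted p = 0.759).

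The death receptor genes were evenly divided, 6 above and 6 below 0 of 12 tested (median -0.06). Traf2, an adaptor of TNF receptors, had 0.27 ± 0.11 (SE, edgeR adjusted p = 0.635) and Tnfrsf10b, the mouse TRAIL receptor, -0.25 ± 0.15 (edgeR adjusted p = 0.762). Cflar, which encodes the caspase-8 inhibitor FLIP, stood at log2 CPM values of 6.28 ± 0.15 in Het and 6.40 ± 0.16 in WT. Of the p53 list, 20 of 21 genes were tested, 10 on each side of 0 (median 0.00). Trp53 itself had 0.06 ± 0.13 (edgeR adjusted p = 0.951). Cdkn1a, the p53 target that arrests the cell cycle, stood at log2 CPM values of 9.27 ± 0.19 in Het and 9.33 ± 0.22 in WT, and Zmat3 had the smallest p, at -0.37 ± 0.19 (edgeR adjusted p = 0.749). Tnfrsf10b stands in both lists.

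Genes that regulate BH3-only genes and proteins, or MCL1, lay below 0 in 12 of 16 cases (median -0.14), against 50.9% of all genes tested. Fbxw7, the ubiquitin ligase subunit that marks MCL1 for degradation, had 1197, 1737, 1978, 1707 and 1587 counts in the Het libraries and 1473 to 2545 in WT, with -0.40 ± 0.13 (SE, edgeR adjusted p = 0.404), the smallest p of all listed genes. Ddit3, the stress factor CHOP, had -0.31 ± 0.16 (edgeR adjusted p = 0.749), and Dynll1, a dynein light chain that binds BIM, -0.29 ± 0.16 (edgeR adjusted p = 0.758). The 5 listed mitochondrial and autophagy genes all lay above 0 (median 0.07). Becn1, which encodes Beclin 1, had 0.17 ± 0.09 (edgeR adjusted p = 0.753). Bnip3 had 0.25 ± 0.16 (edgeR adjusted p = 0.792) and Bnip3l, a mitophagy receptor, 0.05 ± 0.11. Bcl2l13 stands both in this list and among the further BCL2 family members.

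Of 10 necroptosis and pyroptosis genes tested, 5 lay on each side of 0 (median -0.04), with Casp4, an inflammatory caspase at only 4 to 65 counts, at -1.06 ± 0.50 (SE, edgeR adjusted p = 0.717) and Pycard, the inflammasome adaptor ASC, at -0.24 ± 0.12 (edgeR adjusted p = 0.741). Gsdme, a gasdermin, measured 9.28 ± 0.18 log2 CPM in Het and 9.51 ± 0.32 in WT, and its fold change on the log2 scale was -0.26 ± 0.15 (edgeR adjusted p = 0.776). Among 11 ferroptosis genes tested, 8 lay above and 3 below 0 (median 0.03). Acsl4, which supplies the lipids that peroxidise in ferroptosis, had -0.25 ± 0.12 (edgeR adjusted p = 0.706), Aifm2, a suppressor of ferroptosis, 0.24 ± 0.12 (edgeR adjusted p = 0.728) and Fth1, the ferritin heavy chain, -0.32 ± 0.16 (edgeR adjusted p = 0.741).

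**Figure D5:**
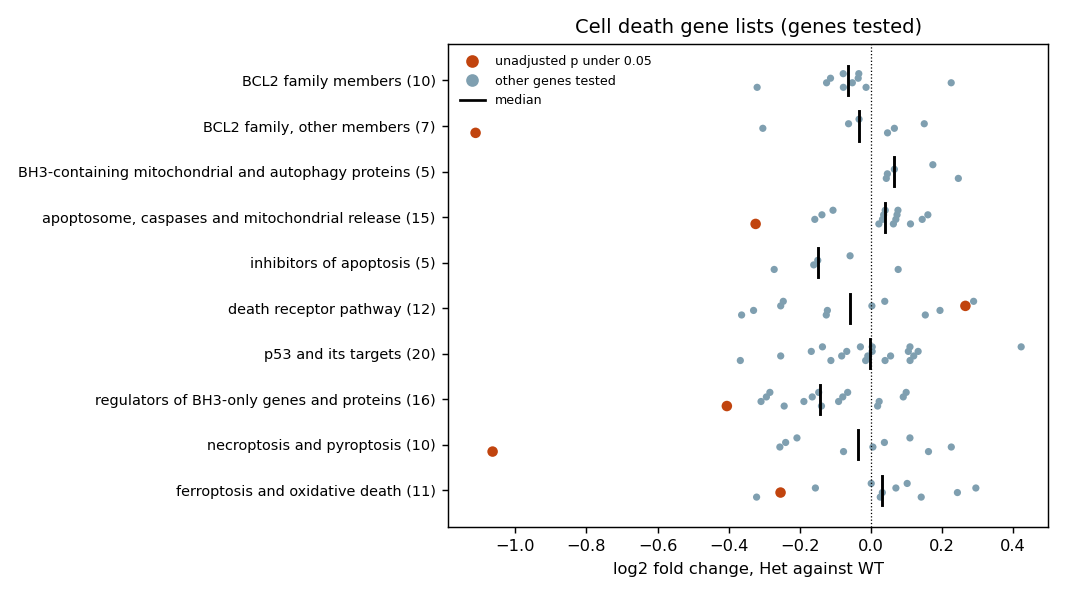
Log2 fold change of Het against WT for each tested gene of the 10 members and of the 9 cell death lists (number tested in brackets), with black bars at the list medians and larger red points for genes with an unadjusted p under 0.05. The 6 red points, of which Traf2 alone is above 0, missed the threshold after adjustment, and the medians lie between -0.15 and 0.07.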

How the data were processed

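Enamel organs of 5 Het and 8 WT mice were sequenced from total RNA with an unstranded Nextera XT kit as single reads, per the labels' protocols. The submitters' processing notes name STAR 2.5.2a, GRCm38, DESeq2, edgeR and limma. No source used here gives the counting tool or its annotation. Raw counts as deposited were what was tested. The 24 features that are no mouse gene took at most 0.000177% of a library and were left out. The authors also deposited a filtered count table of 21223 features, used as an alternative filter, and a signal table of TMM-scaled CPM, used for no test: within a library its values are the counts times 1 constant, 0.996 to 1.00 times the scale used here.

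Genes were filtered with filterByExpr (minimum count 10) and tested in R 4.3.3 by edgeR 4.0.16 (robust glmQLFit and glmQLFTest on TMM factors), all 13 libraries, with no covariate. SE came from the F statistic, intervals from the moderated degrees of freedom. Log2 CPM used a prior count of 2. Columns name the genotype, not a labelled replicate, so they were assigned to genotypes only. Symbols matched 48349 genes, and positions and exon lengths came from GENCODE M21 (GRCm38). Alternatives were other factors and filters, DESeq2 1.42.0, limma 3.58.1 voom with sample weights, the prefix as a term, and leaving out libraries or prefixes. Named genes are the 10 members, Tgfbr2, Trp53, and in each list those past the threshold (up to 4) or the 2 of smallest p, plus the one of highest mean log2 CPM, a scale that does not correct for gene length. A gene that this rule names is not reported here. Any other named gene was chosen after its values were seen. The members and lists were chosen with earlier results of these data known. Self-test data were drawn from the real means and library sizes.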

Additional observations from a re-analysis of the deposited data

How the results depend on the processing

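The count of 0 members past the threshold, and of 0 listed cell death genes, held in all 25 alternative fits of edgeR, DESeq2 and limma-voom. The count over all genes tested did not hold. From 14 it moved to 74 with DESeq2, 25 with a floor of 1 CPM in 5 libraries, 27 when all counts were kept, 25 with limma-voom and 30 with the prefix as a term. It was 0 without prefix 1 (731 at an unadjusted edgeR p under 0.05; DESeq2 was not run there), 1 without prefix 4, 2 without prefix 5 and 2 without Het 1-2 and WT 1-4 (an alternative added after seeing the data), and 6 to 22 with 1 library left out (6 without Het 4-2 or Het 5-6, 7 without Het 5-5, 8 without Het 1-2 or WT 1-1, 9 without WT 1-4, 22 without WT 5-1). The cause was not tested. Members changed the sign of their log2 fold change in 20 cases. Without prefix 4 these were Mcl1 (0.0273), Bax (0.0328) and Bad (0.0883), without prefix 1 Bak1 (0.0604) and without prefix 5 Bid (0.0298). Bak1 had 0.00586 with the prefix as a term and 0.0434 without Het 1-2 and WT 1-4, where Bbc3 had 0.00822, and Mcl1 had 0.00175 with limma-voom. With 1 library left out the log2 fold change ran from -0.0831 to 0.0753 for Mcl1, -0.123 to 0.0424 for Bak1, -0.116 to 0.0234 for Bcl2l11, -0.123 to 0.481 for Pmaip1 and -0.0614 to 0.00543 for Bad. Bcl2 and Bcl2l1 kept their sign in all 25. Levels in log2 CPM moved by less than 1 SD with a prior count of 0.5 or RLE factors. No paired analysis was possible because the columns carry no replicate number of the labels. The prefix, whose meaning is not given, entered as a term in the fit above and is no such pairing. Pmaip1 and Bbc3, at 8 to 90 and 29 to 72 counts, are the members with the fewest counts. They also had the largest SE of the members, at 0.49 and 0.22 on the log2 scale. The part of depth in this was not tested.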
